A study of Mus musculus with 4 samples.

Results

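Matrix metalloproteinases, their tissue inhibitors and urokinase were followed as 10 genes, namely Mmp2, Mmp3, Mmp9, Mmp10, Mmp13, Mmp14, Timp1, Timp2, Timp3 and Plau, in MC38 mouse colon carcinoma cells. They were chosen by name, with earlier results of these data known. All 10 were found among the 27179 genes of the count table. Only Mmp14, Timp1 and Timp2 were expressed at more than 100 counts in every library, and the other 7 did not exceed 20 counts in any library. The 5 genes with enough counts for a test did not pass its threshold with IFN-γ or with hypoxia. It was passed by 5.86% of all tested genes with IFN-γ and by 15.0% with hypoxia. Several other genes of plasminogen activation passed it, among them tissue plasminogen activator.

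Matrix metalloproteinases (MMPs) are zinc-dependent enzymes that cut collagens, laminins, fibronectin and other proteins of the extracellular matrix. They are made as inactive proenzymes, are activated by other proteases, and are blocked by tissue inhibitors of metalloproteinases (TIMPs) that bind the active site. Urokinase, encoded by Plau, converts plasminogen to plasmin, which degrades fibrin and can activate several pro-MMPs. In colon tumors much of the secreted MMP and urokinase is known to come from stromal fibroblasts and infiltrating leukocytes as well as from the cancer cells.

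The 4 libraries were wild-type MC38 cells without stimulus under normoxic conditions (20% oxygen), with IFN-γ under normoxic conditions, without stimulus under hypoxic conditions (1.5% oxygen) and with IFN-γ under hypoxic conditions, in the order in which values are given throughout. IFN-γ, a cytokine released by activated T cells, was used at 5 ng/mL, and for 24 h in most experiments of the study. Each condition had 1 library of poly-A RNA from 1 cell line, so variation between cultures was not measured. The totals were 34302971, 34537939, 34514248 and 34420642 counts on genes, and 3 counts, taken here as the detection floor, were 0.0869 to 0.0875 CPM, that is, counts scaled to a common library size.

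The stimuli were visible in their usual targets. Gbp2, an interferon-inducible GTPase, was higher by 5.20 on the log2 scale with IFN-γ, and Car9, a carbonic anhydrase induced by hypoxia-inducible factors, by 2.14 with hypoxia. The label calls the cells colon cancer cells, but defining epithelial markers were at or near 0. Cdh1, Cdx1 and Cdx2 had 0 counts in all 4 libraries and Epcam at most 2, while Krt8 had 48 to 90, Lgals4 13 to 27, Krt20 12 to 22 and Vil1 7 to 17. None of 10 colon epithelium markers exceeded 100 counts in any library, and their summed level was 3.27 to 3.81 CPM. Of 9 fibroblast markers, Col3a1 and Pdgfra exceeded 100 counts in every library and Thy1 was at 0, with a summed level of 105 to 140 CPM. Of 8 macrophage markers, Cd14 and Cd68 exceeded 100 counts and Adgre1, Itgam and C1qa were at 0, with a summed level of 21.5 to 25.5 CPM. The 4 T cell and 4 endothelial markers summed to at most 0.78 and 1.56 CPM. Whether other cells contributed to the genes below was not tested.

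The upstream sequences are shown first, since the choice of the genes did not use them. RefSeq promoters on GRCm38.p6 were at hand for 7 of the 10 genes, and the 100 bases before each annotated start are printed 5′ to 3′ on the strand of the gene. Capitals mark TGANTCA, the AP-1 motif, TATAAA, the letters of the TATA box, and ACGTG or GCGTG, the core letters of hypoxia response elements. CACGT is ACGTG read on the other strand. No marked motifs overlap.
Mmp3, chr9:7445722-7445821, plus strand: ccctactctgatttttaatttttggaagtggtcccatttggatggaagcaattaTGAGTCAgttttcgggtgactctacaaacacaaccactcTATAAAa
Mmp10, chr9:7502242-7502341, plus strand: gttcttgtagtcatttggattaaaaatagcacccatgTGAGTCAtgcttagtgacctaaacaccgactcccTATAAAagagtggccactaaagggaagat
Mmp13, chr9:7272414-7272513, plus strand: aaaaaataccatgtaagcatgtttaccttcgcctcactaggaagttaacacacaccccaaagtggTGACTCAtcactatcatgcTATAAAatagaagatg
Mmp14, chr14:54431498-54431597, plus strand: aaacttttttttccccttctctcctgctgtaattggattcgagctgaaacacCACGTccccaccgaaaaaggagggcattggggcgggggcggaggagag
Timp1, chrX:20870066-20870165, plus strand: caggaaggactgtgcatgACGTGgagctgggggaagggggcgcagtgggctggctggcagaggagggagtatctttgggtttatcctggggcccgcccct
Timp2, chr11:118355412-118355511, minus strand: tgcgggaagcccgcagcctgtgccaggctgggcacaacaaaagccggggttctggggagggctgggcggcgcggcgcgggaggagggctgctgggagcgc
Timp3, chr10:86300312-86300411, plus strand: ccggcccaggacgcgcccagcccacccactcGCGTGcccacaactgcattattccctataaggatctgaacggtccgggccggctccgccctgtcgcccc
Within 250 bases before the start, Mmp3, Mmp10 and Mmp13 each held 1 AP-1 motif, at positions -46, -63 and -35, and 1 TATAAA, at positions -7, -29 and -16. These 3 promoters had 1 CpG dinucleotide each, fewer than the median of 6, and a GC content of 37.6%, 37.2% and 40.4%. In 27025 promoters of the same length, TGANTCA on either strand was found in 6.87%, TATAAA on the gene's strand in 8.12%, and both in 0.862%. Mmp14, Timp1, Timp2 and Timp3, the last with few counts itself, held neither motif and had 10, 6, 21 and 18 CpG, with a GC content of 55.2%, 54.4%, 68.0% and 65.6%. ACGTG on either strand occurred in Mmp14 at -48 and in Timp1 at -82, against 16.6% of all promoters, and GCGTG occurred in Timp1 at -206, Timp2 at -113 (both before the printed bases) and Timp3 at -69, against 28.2%. TTCNNNGAA, the site bound by STAT dimers, was in none of the 7 windows and in 7.18% of all promoters. A match of letters is a description of the sequence. It does not show that a factor was bound or that TATAAA works as a TATA box at its position. Mmp3, Mmp10 and Mmp13 are neighbours on chromosome 9 and so are not 3 independent cases. Whether these sequences relate to the level of a gene was not tested.

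Mmp3, Mmp10 and Mmp13 lie together on chromosome 9, where the span 9:7272514-7699585 holds 10 MMP genes. Mmp13 (9:7272514-7283333) encodes collagenase 3, Mmp3 (9:7445822-7455975) stromelysin 1 and Mmp10 (9:7502342-7510242) stromelysin 2. Mmp3 had 0, 8, 0 and 0 counts, so the 8 counts came from the normoxic IFN-γ library alone. Mmp10 had 4, 0, 0 and 2 counts, and Mmp13 had 8, 6, 2 and 0. All 10 genes of the cluster together had 12, 14, 2 and 4 counts, of which 4 genes supplied all. The 2 hypoxic libraries were the lower ones for this sum, but none of the 3 genes passed the filter on low counts. Without that filter edgeR called none of the 5 members it had kept out, with adjusted p of 0.714 to 0.972 with IFN-γ and 0.385 to 0.967 with hypoxia. Of their 20 single-pair counting intervals 4 left out no change, among them the normoxic IFN-γ pair of Mmp3 and the hypoxia pair of Mmp13 in IFN-γ libraries, and 0 did with counts halved. An AP-1 motif was found in 7 of the 10 promoters of the cluster and TATAAA in 7, and none held more than 4 CpG.

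The gelatinases and urokinase also had few counts. Mmp2 (8:92827290-92853421), which encodes gelatinase A, had 2, 0, 0 and 0 counts, all at or under the floor. Plau (14:20836662-20843388) had 2, 2, 6 and 0 counts and exceeded the floor only in the hypoxic control library. Mmp9 (2:164940326-164955850), which encodes gelatinase B, had 12, 20, 8 and 12 counts and was the most abundant of the low MMP members. It was the higher of each pair with IFN-γ and the lower of each pair with hypoxia, but the 95% counting intervals of all 4 pairs included 0, and its level averaged 0.107 RPKM, which is CPM divided by the exon length in kilobases. In the fit over both stimuli Mmp9 differed by 0.68 with IFN-γ (SE 0.591) and by -0.66 with hypoxia (SE 0.591) on the log2 scale, with edgeR adjusted p = 0.743 and 0.52.

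**Figure D1:**
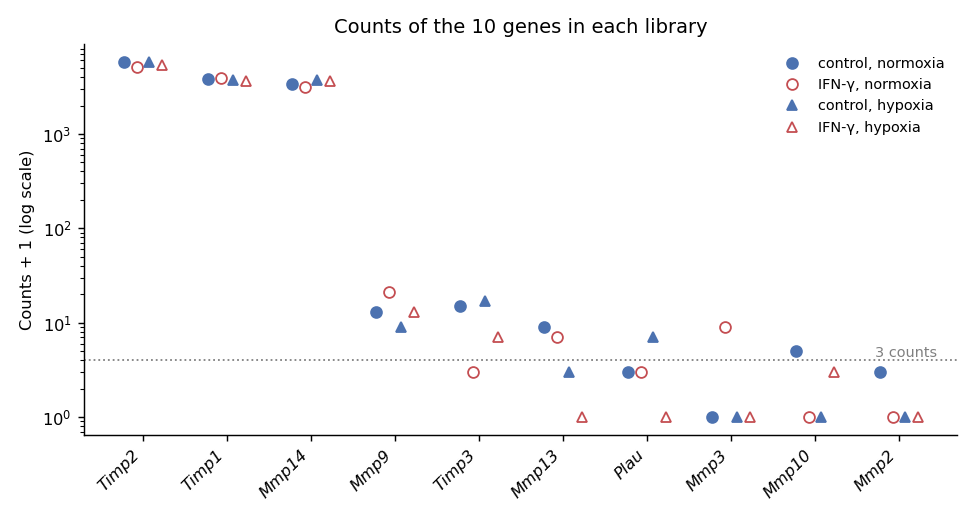
Counts plus 1 of each of the 10 genes in each of the 4 libraries, on a log axis. Circles are normoxic and triangles hypoxic libraries, filled symbols are controls and open symbols IFN-γ, and the dotted line marks 3 counts. Timp2, Timp1 and Mmp14 lie above 3000 counts, and the other 7 genes at 20 counts or fewer.

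Across the family as annotated, 23 MMP genes were counted and 2 of them, Mmp14 and Mmp11, exceeded 100 counts in every library. Of the other 21, none exceeded 31 counts in any library, and 7 were at 0 in all 4. Mmp14 encodes MT1-MMP, which is anchored in the plasma membrane, cuts fibrillar collagen and activates pro-MMP2. Mmp11, stromelysin 3, was not among the 10 genes and had 1110, 908, 1212 and 1075 counts. Mmp14 and Mmp11 took 98.4%, 97.8%, 98.8% and 98.1% of the 4601, 4117, 4967 and 4764 counts on MMP genes, and Mmp14 alone took 74.3% to 75.8%. Mmp2, the best known substrate of MT1-MMP, was thus at or under the floor in cells where Mmp14 was the leading MMP transcript.

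Per exon length, Timp1 was the highest of the 10 genes, then Timp2, then Mmp14, in every library. Timp1 (X:20870166-20874737), a soluble inhibitor of most secreted MMPs, stood at 124, 130, 121 and 120 RPKM. It ranked 364 to 379 among the 16257 genes that had an exon length and a count in any library. Timp2 (11:118301061-118355411), which inhibits MMPs and also links pro-MMP2 to MT1-MMP at the cell surface, stood at 42.8, 38.6, 43.2 and 40.6 RPKM. Mmp14 (14:54431598-54442456) stood at 16.6, 15.3, 17.9 and 17.6 RPKM and ranked 3033 to 3523. The ranges of the 3 genes over the 4 libraries did not overlap. Timp3 (10:86300412-86349505), the inhibitor that binds to the matrix, averaged 0.0338 RPKM. Among the lowest genes, Mmp13, Mmp3, Plau, Mmp10 and Mmp2 averaged 0.0434, 0.0324, 0.0306, 0.0252 and 0.00428 RPKM, and their order cannot be read at so few counts.

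The summed TIMP level exceeded the summed MMP level in every library, by a ratio of 5.78, 6.58, 5.28 and 5.39 in RPKM over 4 TIMP and 23 MMP genes. The ratio was highest in the normoxic IFN-γ library, where the MMP sum was lowest at 25.6 RPKM, against 28.8, 31.1 and 29.8 in the other 3. The TIMP sum varied less, between 161 and 168 RPKM. The ratio of Timp1 to Mmp14 was 7.48, 8.5, 6.75 and 6.8, and that of Timp2 to Mmp14 was 2.58, 2.53, 2.41 and 2.3. These ratios depend on the exon lengths used, which were 888 bases for Timp1, 3896 for Timp2 and 5960 for Mmp14. In counts, Timp1 had 3806, 3949, 3714 and 3649, and Mmp14 had 3417, 3120, 3693 and 3599. Timp1, at 120 to 130 RPKM, made up most of the TIMP sum, and Mmp14 most of the MMP sum. The ratios are of transcripts and do not measure how far a TIMP inhibits an MMP. With 1 library per condition no test was made of them.

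**Figure D2:**
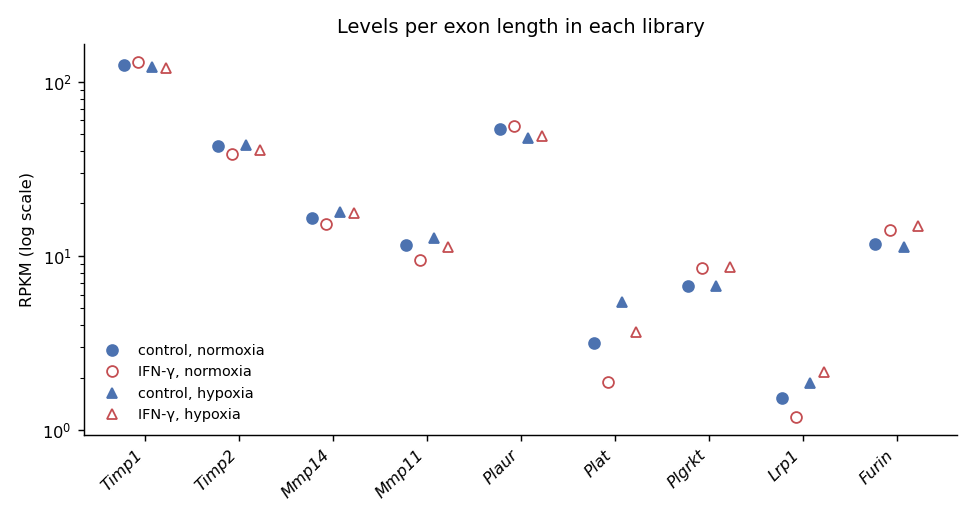
Level per exon length (RPKM, log axis) of Timp1, Timp2, Mmp14, Mmp11 and 5 genes of plasminogen activation and proenzyme processing in each library. Circles are normoxic and triangles hypoxic, filled symbols controls and open symbols IFN-γ. Timp1 lies highest at 120 to 130 RPKM, and Plat is spread most widely over the 4 libraries among the genes drawn.

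The question whether IFN-γ or hypoxia changed these genes was put to a model with both stimuli fitted to all 13580 genes that passed the filter, Mmp9, Mmp14, Timp1, Timp2 and Timp3 among them. Here the spread measures how far the stimuli depart from adding up, pooled over genes, and not how replicate cultures differ. With IFN-γ, 0 of the 5 tested genes were raised and 0 lowered at an edgeR adjusted p under 0.05, where 4.76% of all tested genes were raised and 1.10% lowered. With hypoxia the counts were again 0 and 0, where 8.21% of all tested genes were raised and 6.83% lowered. At an unadjusted p under 0.05, 2 of the 5 (Timp2 and Timp3) passed with IFN-γ and 1 (Mmp14) with hypoxia, and DESeq2 called none of the 5 with IFN-γ and none of the 3 for which it gave an adjusted p with hypoxia (Mmp9 and Timp3 had none). The median fitted change of the 5 genes was -0.07 with IFN-γ and 0.04 with hypoxia on the log2 scale, beside -0.01 and 0.00 over all genes tested.

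Mmp14 came closest to the threshold with hypoxia. Its 3417, 3120, 3693 and 3599 counts were higher in both hypoxic libraries than in both normoxic ones. The fitted difference with hypoxia was 0.16 (SE 0.0627, 95% interval 0.04 to 0.28) on the log2 scale with an edgeR adjusted p of 0.0622, and 0.0681 to 0.379 under the 5 other fits. The hypoxic library had 1.08-fold the Mmp14 of the normoxic one among controls (95% counting interval 1.03 to 1.13) and 1.15-fold among IFN-γ libraries (1.10 to 1.21). With IFN-γ the fitted difference was -0.07 (SE 0.0626), with an edgeR adjusted p of 0.752. The IFN-γ change was -0.12 on the log2 scale under normoxic and -0.02 under hypoxic conditions.

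Timp1 was the steadiest of the expressed genes, at 3806, 3949, 3714 and 3649 counts. The groups overlapped for IFN-γ, since the highest and the lowest library were both treated with it, and both hypoxic libraries lay below both normoxic ones. The fitted difference was 0.03 with IFN-γ (SE 0.0616, 95% interval -0.09 to 0.15) and -0.07 with hypoxia (SE 0.0616, 95% interval -0.19 to 0.05), with edgeR adjusted p = 0.94 and 0.495. Timp1 lies within Syn1, which runs on the opposite strand and had 11 to 32 counts, few beside those on Timp1.

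Timp2 had 5767, 5161, 5814 and 5421 counts, lower in both IFN-γ libraries than in both controls. The fitted difference with IFN-γ was -0.12 (SE 0.0579, 95% interval -0.23 to -0.00) on the log2 scale and did not pass the threshold (edgeR adjusted p = 0.333, and 0.342 to 1 under the other fits). The IFN-γ library had 0.904-fold the Timp2 of the control under normoxic (95% counting interval 0.870 to 0.938) and 0.941-fold under hypoxic conditions (0.906 to 0.976). With hypoxia the fitted difference was 0.04 (SE 0.0579, edgeR adjusted p = 0.696). Timp2 holds Cep295nl, annotated on the same strand with 477, 417, 483 and 481 counts, and how reads on both were assigned is not given.

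Timp3 had 14, 2, 16 and 6 counts, so both IFN-γ libraries lay below both controls. The fitted difference with IFN-γ was -1.88 (SE 0.734, 95% interval -3.32 to -0.44) on the log2 scale, which did not pass the threshold (edgeR adjusted p = 0.133, and 0.193 to 1 under the other fits). Under normoxic conditions the ratio of the IFN-γ library to the control was 0.174 (95% counting interval 0.0159 to 0.628), and under hypoxic conditions it was 0.397 (0.121 to 1.02). With hypoxia the fitted difference was 0.52 (SE 0.696, edgeR adjusted p = 0.695). Timp3 lies inside Syn3 on the opposite strand, which had 14 to 25 counts, more than Timp3 in every library, and the strand setting of the counting is not given, so the Timp3 values are uncertain. Over all genes, 65.5% of the counts from 1 to 10 were even, and so were all 18 member counts from 1 to 20. If both mates of a fragment were counted, the intervals above are too narrow. With counts halved the normoxic Timp3 interval ran from 0.0032 to 1.12.

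**Figure D3:**
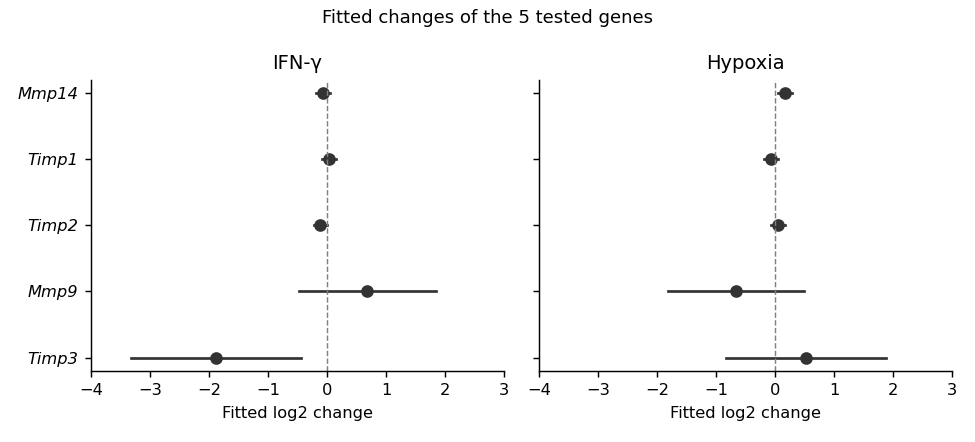
Fitted log2 change with IFN-γ (left) and with hypoxia (right) of the 5 tested genes, from the additive edgeR model over the 4 libraries. Points are estimates, bars 95% intervals and the dashed line no change. Mmp14, Timp1 and Timp2 lie within 0.16 of 0, and the low-count genes Mmp9 and Timp3 have wide intervals.

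Whether hypoxia altered the IFN-γ change of these genes could only be described. The IFN-γ change under hypoxic minus that under normoxic conditions was 0.09 for Mmp14 (95% counting interval -0.00 to 0.19), -0.08 for Timp1 (-0.17 to 0.01) and 0.06 for Timp2 (-0.02 to 0.13) on the log2 scale. Over 10443 genes that had 100 counts or more in each of the 4 libraries, the central 95% of such differences ran from -0.36 to 0.40, and all 3 values lay inside it.

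The wider plasminogen system, 12 genes of which 9 were tested, held genes that passed the threshold with both stimuli. This list and those below were chosen with earlier results of these data known, so their shares and medians are descriptions. Hypoxia raised 4 of the 9, Plat, Anxa2 and Lrp1 among them, and lowered Plaur, where 8.21% of all tested genes were raised and 6.83% lowered, with a median of 0.50 on the log2 scale, beside 0.00 over all genes. IFN-γ raised 1, Plgrkt, and lowered 3, Plat and Anxa2 among them, where 4.76% of all tested genes were raised and 1.10% lowered, with a median of -0.07. Plat encodes tissue plasminogen activator, the other activator beside urokinase, and had 684, 406, 1176 and 781 counts. It fell by 0.65 on the log2 scale with IFN-γ (SE 0.0908, edgeR adjusted p = 4.85e-11) and rose by 0.86 with hypoxia (SE 0.0909, edgeR adjusted p = 6.3e-19). At a mean of 3.54 RPKM Plat was the more abundant of these activator transcripts, with Plau at 0.0306 RPKM.

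Anxa2, a surface receptor for plasminogen and tissue plasminogen activator, had 33740, 31102, 49041 and 42857 counts and rose by 0.50 with hypoxia (SE 0.0463, edgeR adjusted p = 4.26e-25). Its lowering with IFN-γ, by 0.14, was kept by none of the other 5 fits. Lrp1, an endocytic receptor that clears protease and inhibitor complexes, rose by 0.56 with hypoxia (edgeR adjusted p = 6e-10), by 0.27 among controls and 0.85 among IFN-γ libraries. Plaur, the urokinase receptor, had 4866, 4970, 4290 and 4371 counts and fell by 0.18 with hypoxia (edgeR adjusted p = 0.0202). At a mean of 51.3 RPKM it was abundant although its ligand Plau had at most 6 counts. Plgrkt, a plasminogen receptor, rose by 0.35 with IFN-γ (edgeR adjusted p = 4.63e-04).

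**Figure D4:**
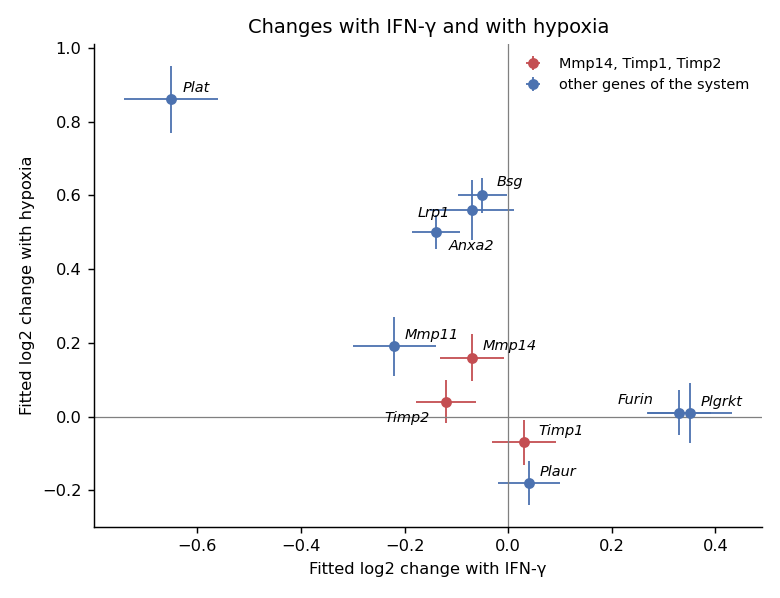
Fitted log2 change with IFN-γ (horizontal) against that with hypoxia (vertical) for Mmp14, Timp1 and Timp2 and for 8 other genes of the protease system. Points are estimates from the additive edgeR model and bars 1 SE. Plat lies farthest from the origin, at -0.65 and 0.86, and Mmp14, Timp1 and Timp2 lie near it.

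The 18 other MMP and TIMP genes included 3 that were tested. Of these edgeR called 0 with either stimulus, beside 5.86% of all tested genes with IFN-γ and 15.0% with hypoxia. In edgeR 1 of them, Mmp11, passed an unadjusted p under 0.05 with each stimulus. DESeq2 called none of the 3 with IFN-γ, and with hypoxia it did not call Mmp11 and gave no adjusted p for Mmp23 and Mmp28. Mmp11 differed by -0.22 with IFN-γ (SE 0.0804, edgeR adjusted p = 0.1) and by 0.19 with hypoxia (SE 0.0804, edgeR adjusted p = 0.102). Among 16 genes of MMP activation and surface partnership, 13 were tested. Furin, the convertase that activates pro-MT1-MMP and pro-stromelysin 3, rose by 0.33 with IFN-γ (SE 0.0608, edgeR adjusted p = 2.89e-06), with 3717, 4404, 3564 and 4649 counts. Bsg, which encodes the MMP inducer basigin, rose by 0.60 with hypoxia (SE 0.0473, edgeR adjusted p = 3.25e-34), with 25755, 24972, 39339 and 37401 counts. Itgav, an integrin chain, rose by 0.30 with hypoxia (edgeR adjusted p = 2.48e-05). Of the 13, 1 was raised with IFN-γ and 2 with hypoxia, where 4.76% and 8.21% of all tested genes were raised. None was lowered, where 1.10% of all tested genes were lowered with IFN-γ and 6.83% with hypoxia.

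Of 20 ADAM and ADAMTS genes, relatives of the MMPs of which some shed surface proteins or cut proteoglycans, 12 were tested. IFN-γ raised Adamts6 by 1.03 and Adamts14 by 0.32 (edgeR adjusted p = 2.16e-04 and 0.00169) and lowered none. Hypoxia raised Adamts1 by 0.42, Adamts9 by 0.42 and Adam9 by 0.16 and lowered Adam15 by 0.18 (edgeR adjusted p = 8.58e-08, 0.0091, 0.0473 and 0.0136), and the Adam9 call was kept by none of the 5 other fits. Of 24 matrix substrates, 18 were tested. Hypoxia raised Fn1, which encodes fibronectin, by 0.31 and Col5a1 by 0.25, the named ones of 3 genes raised. The fitted value of Fn1 lies between 0.07 among controls and 0.55 among IFN-γ libraries. IFN-γ raised Spp1, which encodes osteopontin, by 0.27 and lowered the collagen genes Col3a1 by 0.39 and Col6a1 by 0.60. For Col3a1 the normoxic pair gave -0.25 and the hypoxic pair -0.52. Over these 5 lists of 90 genes, 55 were tested. Of them edgeR called 10 with IFN-γ and 14 with hypoxia, or 18.2% and 25.5%, beside 5.86% and 15.0% of all genes tested. The lists were chosen with earlier results of these data known, so the shares are no test of the lists. DESeq2 kept 5 of the calls with IFN-γ and 8 of those with hypoxia. The calls not kept by DESeq2 included those of Adamts6, Adamts14, Plgrkt and Anxa2 with IFN-γ and of Adam9, Adam15, Adamts9, Fn1, Lrp1 and Plaur with hypoxia. With the other stimulus left out of the model, 1 call with IFN-γ (Col6a1) and 2 with hypoxia (Anxa2 and Bsg) were kept.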

How the data were processed

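RNA was measured in 4 libraries of MC38 cells, 1 per condition. The libraries were poly-A selected, strand-specific and sequenced from both ends on a DNBSEQ instrument. Reads were aligned with HISAT2 (methods of the study), and the submitters' processing notes name featureCounts and mm10. Counting options and annotation are not given in the sources used here. The authors deposited whole-number counts per NCBI gene ID without normalization. RefSeq names on GRCm38.p6 matched 25275 of 27179 IDs, and GENCODE M21 exon unions gave lengths for 21610, from which RPKM was computed here.

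Counts of all 4 libraries were fitted with edgeR 4.0.16 (quasi-likelihood, R 4.3.3) after TMM (factors 0.993 to 1.01), the default filter (minimum count 10), oxygen and IFN-γ as additive terms and Benjamini-Hochberg adjustment over 13580 genes at 0.05. It leaves 1 residual degree of freedom per gene (pooled dispersion 0.00222, coefficient of variation 4.71%). Ratios of 2 libraries used 0.5 added counts and 95% Clopper-Pearson intervals, and differences of ratios Poisson intervals, which cover counting error only. Scripts were tested on simulated data. The 10 genes and all lists were chosen with earlier results of these data known. Named genes were the 10, list genes with an adjusted p under 0.05 and a mean of at least 50 counts (at most 8 per list and comparison), and the 3 genes most like the tested member with the largest change. Alternatives were DESeq2's size factors, DESeq2 1.42.0's Wald test, no filter, at least 10 counts per library, a model without the other stimulus, other thresholds, single pairs, total counts and 5 added counts. Halved counts were added after seeing the data. The promoters of Mmp2, Mmp9 and Plau were not used here. Some genes that the rule would name are not reported here.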

Additional observations from a re-analysis of the deposited data

Results flagged for a closer look

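Among the genes of the lists, 5 lay lower with IFN-γ under normoxic and higher with IFN-γ under hypoxic conditions, with counting intervals that left out 0 in both pairs even with counts halved. Of the 41 list genes with 100 counts or more in each library, these 5 are 12.2%, and 1.52% of 10443 such genes over the whole table turned the same way. The lists were chosen with earlier results of these data known, and the whole table was not matched to them in depth. These shares are therefore a description and no test. Each pair is 1 library against 1, and the difference itself was not tested. Lrp1 went from -0.38 under normoxic to 0.21 under hypoxic conditions on the log2 scale, a difference of 0.58. Hspg2, which encodes the basement membrane proteoglycan perlecan, went from -0.27 to 0.28, a difference of 0.56. Fn1 went from -0.30 to 0.18, a difference of 0.48. Lama5, a laminin chain, went from -0.29 to 0.11, a difference of 0.40. Col4a1, a collagen chain of basement membranes, went from -0.13 to 0.07, a difference of 0.20. The exon lengths of these 5 genes ran from 7464 bases (Col4a1) to 17717 bases (Lrp1). The median difference was 0.01 in the 1011 longest genes, of at least 10179 bases, and -0.07 in the 1011 shortest, of at most 1903 bases. The part of transcript length in these differences was not tested. Mmp14, Timp1 and Timp2 were not among them. Lrp1, Hspg2 and Fn1 lay outside the central 95% of all such differences (-0.36 to 0.40), and Lama5 and Col4a1 did not.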

How the results depend on the processing

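The count of members called was 0 with either stimulus under DESeq2's size factors, DESeq2's Wald test, no filter, at least 10 counts per library, a model without the other stimulus and a minimum log2 change of 1 (with hypoxia DESeq2 gave an adjusted p for 3 of the 5 genes). At an unadjusted p under 0.05 it was 2 with IFN-γ and 1 with hypoxia. No fitted change of a tested gene turned direction under another fit. In single pairs Timp1 did, at -0.01 in the hypoxic IFN-γ pair, and Timp3 had a hypoxia change of 1.38 in the IFN-γ pair. Mmp9 and Timp3 do not reach 10 counts in every library and have no value under that filter. Of 20 single-pair intervals of the 5 tested genes, 9 left out 0 and 6 did with counts halved, an alternative chosen after seeing the data. No paired analysis was possible because each condition has 1 library. Leaving out a library leaves 3 libraries for 3 parameters, so no test could be made without it. Depth limits the 7 genes at 20 counts or fewer: differences in them were not detectable unless large, and absence is not shown.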

Other observations

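The genes most like a member over the 4 libraries were sought among the 10443 genes counted 100 times or more in each library, by the root mean square difference in centred log2 normalized CPM. This is a description over 4 libraries, and both members had few counts. Timp3, the tested gene with the largest fitted IFN-γ change, was nearest to Plat (0.686), Aldoc (0.758) and Cldn6 (0.771). Mmp9, the tested gene with the largest fitted hypoxia change in edgeR (-0.66, where DESeq2 gave 0.79 for Timp3), was nearest to Eif3j2 (0.15), and Ier5 (0.207) was also among its 3 nearest genes.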
